A study of Mus musculus with 6 samples.

Results

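The insulin-like growth factor (IGF) signalling genes described here are Igf1, which encodes the ligand, the receptor genes Igf1r and Insr, the binding protein genes Igfbp2, Igfbp3, Igfbp4 and Igfbp5, and the adaptor genes Irs1 and Irs2. They were named as a family by symbol, though with earlier results of these data known, and are 9 of 47691 genes quantified. The cells were spinal cord oligodendrocyte precursor cells (OPCs), the dividing precursors of the myelin-forming glia, from C57BL/6 mice at postnatal day 0.5. They were collected on magnetic beads against A2B5, a surface epitope of glial precursors, and cultured for 16 h. Of the 6 libraries, 3 came from Gde3 knockout (KO) and 3 from wild-type (WT) cultures. The product of Gde3, also named Gdpd2, releases glycosylphosphatidylinositol-anchored proteins from the cell surface, and the series title ties it to OPC proliferation through the soluble CNTF receptor alpha. Every culture of both genotypes had the same medium. It held 5 µM forskolin, CNTF and PDGF at 10 ng/mL each, sodium pyruvate, and the supplements B27 and N2, both of which contain insulin. The labels do not say whether the mice lack Gde3 in all cells, or whether the libraries of a genotype came from separate litters or animals. The p-values therefore measure only how far these libraries spread, and that spread may be technical.

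IGF1 is a secreted growth factor that binds the IGF1 receptor, a tyrosine kinase closely related to the insulin receptor. The activated receptors phosphorylate the adaptors IRS1 and IRS2, which recruit PI3 kinase and so activate AKT and mTOR. The IGF binding proteins hold IGFs outside the cell and can limit or prolong their action, and IGF1 is known to promote the survival, proliferation and differentiation of oligodendrocyte lineage cells.

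The deposited values are FPKM, sequenced fragments relative to the length of the transcript and the size of the library, given for each transcript that was assembled in a library. A gene's level is here the FPKM of the transcripts covering it, averaged over its exonic bases. Since FPKM is a density per length, levels can be set side by side between genes. A stretch that was not assembled counts as 0, so a level depends on assembled extent as well as on abundance. The assemblies held 32098 to 56807 transcripts, and WT replicate 1 was the most fragmented, where the median transcript was 438 nt long and in the other libraries 1173 to 1830 nt. Relative depth was 0.759 in WT replicate 1 and 0.882 to 1 in the others. Exons 9 and 10 of Gdpd2 were assembled over 0% of their length in all 3 KO libraries and over 100% in WT replicates 2 and 3. WT replicate 1 held these exons only in a transcript of 145 nt, below the 300 nt minimum used for levels. The junctions from exon 8 to 9 and from exon 9 to 10 were assembled in all 3 WT libraries and in 0 of the KO libraries. All 10 OPC marker genes listed, among them Pdgfra and Olig2, were above 1 FPKM in every library. So were all 7 astrocyte, 8 neuron and 5 Schwann and neural crest markers listed. Being above 1 FPKM therefore does not measure how pure the cultures were.

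Several of the genes make more than one transcript form, and the assemblies show which forms were present. The insulin receptor gene Insr (chr8:3122061-3279617, minus strand, mm10) has an alternative 36 nt exon at chr8:3181702-3181737. The receptor without it, known as isoform A, binds IGF2 with high affinity, and the receptor with it, isoform B, is the more insulin-selective form. The sequences below are shown because the annotation holds both forms and the assemblies held only the form without the exon. They are GENCODE transcript sequence, with the alternative exon in capitals and 30 bases of its neighbouring exons in lower case.
Insr with the exon: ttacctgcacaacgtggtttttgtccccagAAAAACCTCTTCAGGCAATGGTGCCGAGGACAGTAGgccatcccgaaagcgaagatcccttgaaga
Insr without the exon: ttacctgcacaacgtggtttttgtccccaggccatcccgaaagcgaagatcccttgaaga
The exon was assembled in 0 of 6 libraries. The junction that skips it was assembled in 6 of 6, in transcripts of 10.1, 9.04 and 7.35 FPKM in KO replicates 1 to 3 and at 9.50, 9.71 and 7.92 FPKM in WT replicates 1 to 3. The assembled insulin receptor transcripts were thus of the isoform A structure in both genotypes. An assembler can leave out a minor form, so a low level of isoform B cannot be told from its absence.

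Igf1 (chr10:87858265-87937042, plus strand, mm10) has an alternative 52 nt exon at chr10:87915298-87915349, in its coding part. Its length is not a multiple of a codon, so that with the exon the precursor ends in the Eb peptide and without it in the Ea peptide. Both peptides are removed from the mature growth factor. The 2 forms are shown because both were assembled, again with the alternative exon in capitals.
Igf1 with the exon: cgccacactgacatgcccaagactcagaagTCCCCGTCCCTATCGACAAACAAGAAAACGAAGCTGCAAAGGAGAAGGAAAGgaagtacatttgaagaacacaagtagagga
Igf1 without the exon: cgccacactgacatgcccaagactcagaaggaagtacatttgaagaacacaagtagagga
Transcripts with the exon reached 2.16, 4.31 and 2.53 FPKM in KO and 3.03, 3.92 and 3.78 FPKM in WT. In WT replicate 2, 0.951 FPKM of this was an incomplete transcript that ended at chr10:87915386, past the exon. The junction from the exon to the last exon was at 2.96 FPKM there. Transcripts without the exon were at 1.31, 4.98 and 0.815 FPKM in KO and 2.22, 2.14 and 2.49 FPKM in WT. Transcripts with the exon thus made up 62.2%, 46.4% and 75.6% of the 2 in KO and 57.7%, 64.7% and 60.2% in WT. The share of WT replicate 2 includes the incomplete transcript and would be lower without it. Over 3 libraries each, the share averaged 61.4% ± 14.6 (SD) with KO and 60.9% ± 3.51 with WT, and the exact two-sided permutation test gave p = 1, where 0.1 is the smallest p that 3 against 3 libraries allow. The WT shares lay inside the range of the KO shares, with the lowest and the highest of all 6 in KO replicates 2 and 3.

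The receptor gene Igf1r (chr7:67952827-68233668, plus strand, mm10) had 97.3% to 99.6% of its exonic bases assembled. Between its exons 17 and 18, which lie in the part that encodes the kinase domain, KO replicates 1 and 2 held an unannotated exon of 93 nt at chr7:68208913-68209005, in an intron of 4120 nt. In KO replicate 3 a transcript entered the same stretch at the same base and ended there after 81 nt, with no further exon. Exon 17 was joined to this stretch in transcripts of 1.37, 2.11 and 3.86 FPKM in KO replicates 1 to 3, and at 0 in every WT library. This was 22.5%, 27.6% and 40.3% of the FPKM leaving exon 17 in KO. The direct junction from exon 17 to exon 18 was at 4.71, 5.52 and 5.73 FPKM in KO and at 12.1, 6.31 and 7.07 FPKM in WT. The junction was chosen for this pattern after its values were seen, so its values are a description without a test. Among 50531 unannotated junctions assembled in 3 or more libraries, 858 (1.70%) were in all 3 KO and no WT library, and 188 (0.372%) the reverse.

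**Figure D1:**
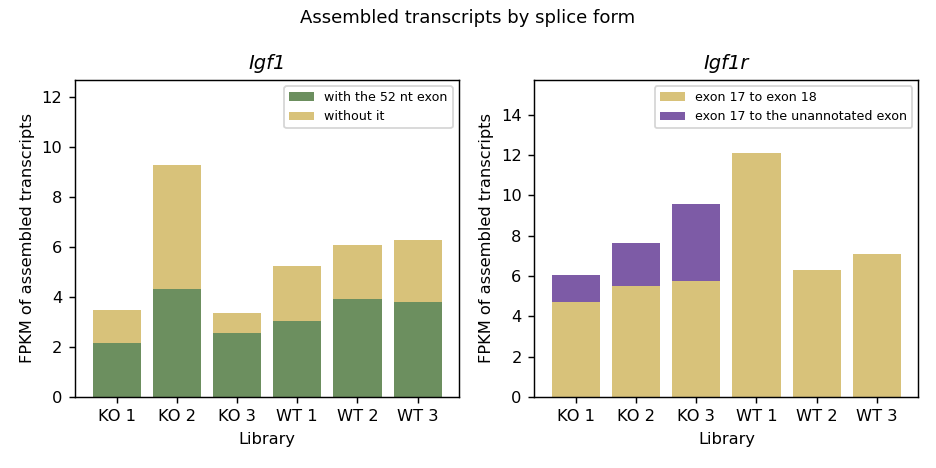
FPKM of assembled transcripts in each of the 6 libraries, for Igf1 with and without its 52 nt exon (left) and for Igf1r by the exon that follows exon 17 (right). Both Igf1 forms are present in every library, and the Igf1r transcripts that enter the unannotated stretch have 1.37 to 3.86 FPKM with KO and 0 with WT.

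Igfbp2 (chr1:72824503-72852474, plus strand, mm10) was the gene whose start was placed most narrowly. Its assembled 5′ ends lay between 28 nt upstream and 12 nt downstream of the RefSeq start at chr1:72824480 in the 6 libraries. The 250 bases before that start are shown for this reason, from RefSeq on GRCm38.p6 (chr1:72824230-72824479, plus strand), with each match to GGGCGG, a core of SP1-type motifs, in capitals.
Igfbp2 promoter: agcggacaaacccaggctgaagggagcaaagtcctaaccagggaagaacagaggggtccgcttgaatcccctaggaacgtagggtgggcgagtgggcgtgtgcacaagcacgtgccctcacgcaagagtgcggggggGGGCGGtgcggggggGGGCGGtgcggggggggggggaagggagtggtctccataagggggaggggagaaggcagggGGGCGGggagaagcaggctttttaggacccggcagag
Searching both strands gave 3 matches to GGGCGG in this window and none to TATAAA, TGACGTCA or GTAAACA. Over all 32851 RefSeq promoter windows of the same length, 32.7% held GGGCGG, 12.4% TATAAA, 1.55% TGACGTCA and 3.17% GTAAACA. Igfbp4 held 1 match to TATAAA. These matches are letters in a window and not measured binding.

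The 9 genes covered a wide range of levels over their whole exonic length. Igfbp5 had the highest mean over the 6 libraries at 80.2 FPKM, followed by Igfbp2 at 66.5, Irs2 at 29.3, Igfbp3 at 28.1, Igfbp4 at 11.4, Igf1r at 7.41, Insr at 7.37, Irs1 at 4.16 and Igf1 at 0.781 FPKM. Igfbp2 exceeded Irs2, Insr exceeded Irs1, and Irs1 exceeded Igf1 in 6 of 6 libraries with ranges that did not overlap. The ranges of the other neighbours overlapped. Igfbp5 was above Igfbp2 in 5 libraries, Irs2 above Igfbp3 in 4, and Igf1r above Insr in 2. Igfbp3 was above Igfbp4 in all 6 although their ranges overlapped. Igfbp5 stood above 94.3% of the tested genes by mean level, Igfbp2 above 92.9%, Igf1r above 41.5% and Irs1 above 25.6%. The secreted binding protein genes Igfbp5 and Igfbp2 thus led the set. In whole-gene levels the adaptor gene Irs2 was level with Igfbp3 and above Igfbp4. Irs2 was, however, assembled over 99.48% or more of its bases, Igfbp3 over at most 78.2% and Igfbp4 over at most 53.4%. Over coding bases Igfbp3 was above Irs2 in every library, at 25.5 to 48.1 FPKM against 20.98 to 40.5 FPKM. Igfbp4 was there above Irs2 in KO replicates 1 and 3 and below it in the other libraries. Igf1 was last in every library for whole-gene levels only. Over coding bases Igf1 had a mean of 4.20 FPKM and Irs1 4.63 FPKM, and Igf1 was above Irs1 in 2 of 6 libraries.

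**Figure D2:**
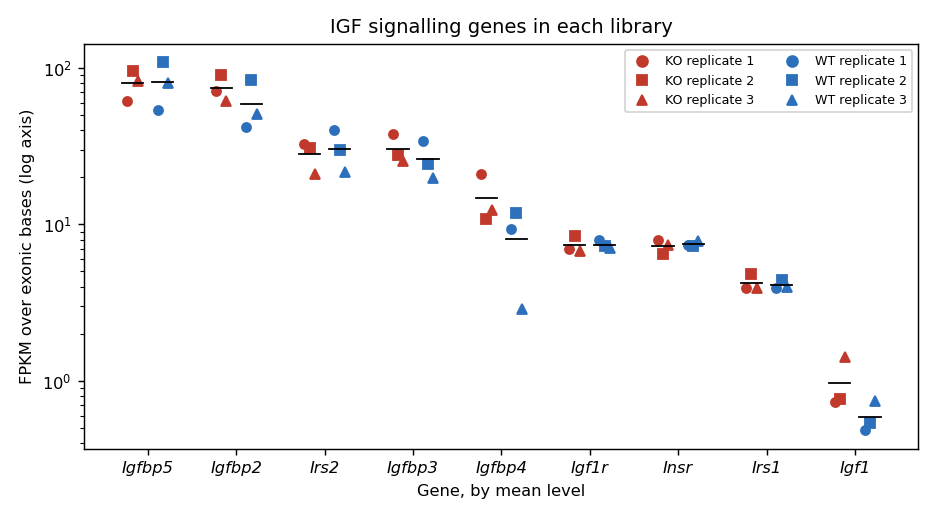
FPKM of the 9 genes in each library on a log axis, with KO libraries left and WT libraries right of each gene and the group mean as a bar. Mean levels run from 80.2 FPKM for Igfbp5 to 0.781 FPKM for Igf1, and no gene separates the genotypes.

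The main comparison asked whether KO and WT cells differed in the expression of these genes. None of the 8 genes whose mean reached 1 FPKM passed the test (limma on log2(FPKM + 1), Benjamini-Hochberg adjusted over 12347 genes, threshold 0.05). Their adjusted p was 0.99986 in each case. For comparison, 3 of all 12347 genes (0.0243%) passed. At an unadjusted p under 0.05 the count was 0 of the 8, against 1.47% of all genes. All 8 had KO and WT libraries whose ranges overlapped, while 2.07% of all genes were higher in KO without overlap and 3.01% lower. Of the 8, 5 had a higher mean in KO, beside 48.8% of all genes, and 3 a lower one, with a median difference of 0.02 on the log2(FPKM + 1) scale, beside -0.005 over all tested genes. A difference on this scale understates the change of genes with low values. The same fit was run on simulated data with 12347 genes, of which 200 were changed. It called 34% of the genes changed by 1 log2 unit and 72% of those changed by 2, with 8 false calls. Moderate changes could thus be missed. The simulated noise was independent between libraries, without the variation that same-numbered libraries share here, so these rates may differ for the real libraries.

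KO and WT libraries of the same number varied together, so fits with the replicate number as a block are given where they bear on a gene. With the replicate block, 0 of the 8 genes passed after adjustment, as did 0 of all genes. At an unadjusted p under 0.05 there was 1, Igfbp3, beside 4.16% of all genes. Igfbp2 and Igfbp3 were higher in KO in all 3 same-numbered pairs, which held for 13.5% of all tested genes.

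**Figure D3:**
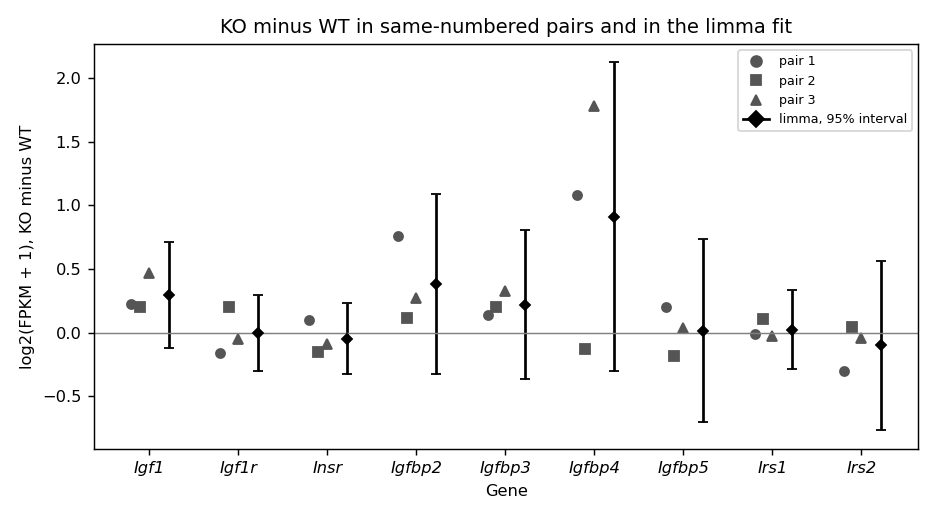
KO minus WT on the log2(FPKM + 1) scale for the 9 genes, in each same-numbered pair of libraries (grey) and as the limma estimate with its 95% interval (black). Every interval includes 0, and those of Igfbp4 (-0.30 to 2.12) and Igfbp5 (-0.70 to 0.73) are the widest.

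Igf1 was at 0.732, 0.770 and 1.41 FPKM in KO replicates 1 to 3 and at 0.483, 0.542 and 0.745 FPKM in WT replicates 1 to 3. KO replicate 3 was the highest library, and KO replicate 1 lay just below WT replicate 3, so the groups overlapped. Each KO library was above the WT library of its number, by 0.22, 0.20 and 0.47 on the log2 scale. Its mean of 0.781 FPKM is under the filter, and the exact two-sided permutation test gave p = 0.2. Without the filter, limma gave 0.30 ± 0.17 (SE) and an adjusted p of 0.9998. Most of the gene's 9904 exonic bases belong to a long last exon that was assembled unevenly, and the whole gene was covered over 54.1%, 29.1% and 66.6% in KO and 12.6%, 19.1% and 50.4% in WT. Over the coding bases alone, Igf1 was at 2.55, 6.48 and 2.64 FPKM in KO and 4.17, 4.59 and 4.74 FPKM in WT. There KO replicate 2 was the highest library and the other KO libraries the lowest, the log2 difference turned to -0.26 with KO higher in 1 of 3 pairs, and the exact permutation test gave p = 0.8. The direction for Igf1 thus depended on which bases were averaged.

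Markers of microglia and macrophages, cells known to make Igf1, differed between the libraries as well. Of the 14 listed, 11 were tested and 11 had a higher mean in KO, beside 48.8% of all genes, with a median of 0.79 on the log2 scale. None passed the limma adjusted threshold, and 5 had an unadjusted p under 0.05, beside 1.47% of all genes. The summed level of the list was 209 to 328 FPKM in KO and 139 to 186 FPKM in WT. Of the 14, 9 were above 1 FPKM in every library. P2ry12, a microglial receptor gene on the list, was under the filter. It was at 0 in all 3 WT libraries and in KO replicate 2, and at 0.157 and 0.281 FPKM in the other KO libraries, which are values near the floor. The part of such cells in the Igf1 values was not tested, and in bulk samples more cells of a type cannot be told from more RNA per cell. The tested genes whose log2 values followed whole-gene Igf1 most closely over the 6 libraries were Rab7b (r = 0.994), Irf9 (r = 0.992) and Gm37111 (r = 0.991). Each was highest in KO replicate 3, at 3.54, 7.66 and 8.79 FPKM. Over coding bases Igf1 was highest in KO replicate 2 (6.48 FPKM) and at only 2.64 FPKM in KO replicate 3, so the likeness holds for whole-gene levels. Rab7b encodes a small GTPase of endosomal traffic and Irf9 a transcription factor of interferon signalling. With 6 points, 120 of the tested genes (0.972%) had r over 0.9. The named genes were picked as the closest of all tested genes, and the libraries differed in depth. Their likeness is a description without a test.

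**Figure D4:**
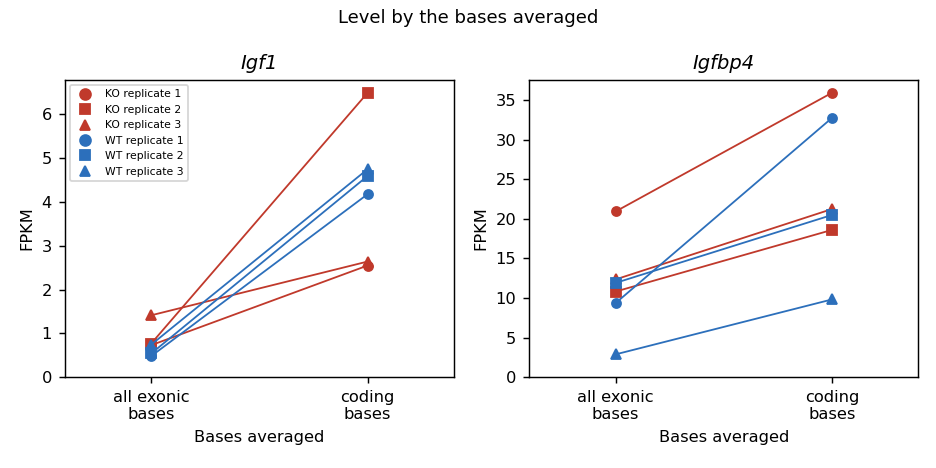
FPKM of Igf1 and Igfbp4 in each library, averaged over all exonic bases and over coding bases, with a line for each library. For Igf1 the KO libraries hold the 2 highest values over all exonic bases but the 2 lowest over coding bases, and for Igfbp4 WT replicate 1 moves from 9.36 to 32.7 FPKM.

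Igf1r, the receptor gene, was at 7.01, 8.47 and 6.79 FPKM in KO and 7.94, 7.23 and 7.05 FPKM in WT. The highest and lowest libraries were both KO, and the WT libraries lay between them. KO minus WT was -0.00095 ± 0.12 (SE), with a 95% interval of -0.30 to 0.30. In whole-gene levels the highest library of Igf1r, Insr and Irs1 was 1.24 to 1.25 times the lowest, and over coding bases 1.71, 1.37 and 1.56 times. Among the genes that followed whole-gene Igf1r most closely were Btg2, an antiproliferative gene (r = 0.991), and Letmd1 (r = 0.990). Both were highest in KO replicate 2, whereas over coding bases Igf1r was highest in WT replicate 1 (12.1 FPKM). Of the tested genes, 47 (0.381%) had r over 0.9.

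Insr was at 7.98, 6.43 and 7.34 FPKM in KO and 7.36, 7.26 and 7.88 FPKM in WT. KO replicates 1 and 2 were the highest and the lowest library. On the log2 scale KO minus WT was -0.05 ± 0.11 (SE), with a 95% interval of -0.33 to 0.23. In whole-gene levels over the 6 libraries, Insr ran opposite to Irs1 (r = -0.855) and to Igf1r (r = -0.772). Over coding bases, however, KO replicate 3 was the lowest library for both Insr (7.35 FPKM) and Irs1 (3.91 FPKM). WT replicate 1 was there the highest for Igf1r (12.1 FPKM), with Insr at 9.41 FPKM and at most 10.1. The r values thus describe 6 points of whole-gene levels, which depend on assembled extent, from libraries that differed in depth.

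Igfbp2, a binding protein with a preference for IGF2, was at 71.4, 90.6 and 61.3 FPKM in KO and 41.7, 83.6 and 50.6 FPKM in WT. Replicate 2 was the highest library of each genotype, and WT replicate 2 exceeded KO replicates 1 and 3. Averaged over 3 libraries each, KO had 74.4 ± 14.8 (SD) and WT 58.6 ± 22.1 FPKM. The log2 difference was 0.38 ± 0.29 (SE), which was within the spread between libraries. With the replicate block its SE was 0.16 and its limma adjusted p was 0.813. The difference was 0.76 in pair 1, 0.11 in pair 2 and 0.27 in pair 3, and without WT replicate 1 it was 0.17.

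Igfbp3, the main carrier of IGFs in blood, was at 37.6, 27.9 and 25.2 FPKM in KO and 34.1, 24.1 and 19.9 FPKM in WT (chr11:7206086-7213923, minus strand, mm10). In each genotype replicate 1 was the highest and replicate 3 the lowest, and each KO library exceeded the WT library of its number. The pair differences were 0.14, 0.20 and 0.33. The log2 difference was 0.22 ± 0.24 (SE) without the block and 0.22 ± 0.07 with the replicate block, where the limma p was 0.0425 unadjusted and 0.813 adjusted over all genes. It was 0.05 without WT replicate 3 and 0.06 without KO replicate 1.

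Igfbp4, which encodes a mainly inhibitory binding protein, had the largest whole-gene difference in the set. It was at 20.9, 10.8 and 12.3 FPKM in KO and 9.36, 11.9 and 2.89 FPKM in WT (chr11:99041244-99054392, plus strand, mm10). KO replicate 1 was the highest library and WT replicate 3 the lowest, and WT replicate 2 exceeded KO replicate 2. The log2 difference was 0.91 ± 0.50 (SE), with a 95% interval of -0.30 to 2.12. Its last exon of 2948 nt was assembled over 41.1%, 41.0% and 41.0% in KO, and over 3.15%, 40.9% and 0.645% in WT replicates 1, 2 and 3. Exons 1 to 3 were assembled in full in all 6 libraries, at 39.2, 20.3 and 23.2 FPKM in KO and 37.7, 22.4 and 12.6 FPKM in WT. Over coding bases alone the gene was at 35.9, 18.6 and 21.2 FPKM in KO and 32.7, 20.5 and 9.82 FPKM in WT, a log2 difference of 0.35 ± 0.45 (SE), which is smaller than the 0.41 of Igfbp2 over coding bases. The difference between whole-gene and coding values followed the last exon in WT replicates 1 and 3. Without WT replicate 3 the whole-gene difference was 0.39.

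Igfbp5, the most abundant of the 9, was at 61.8, 95.1 and 82.0 FPKM in KO and 53.7, 108 and 80.1 FPKM in WT (chr1:72857932-72874884, minus strand, mm10). In both genotypes replicate 1 was lowest and replicate 2 highest. Its log2 difference was 0.02 ± 0.29 (SE). With the replicate block the SE fell to 0.10. Igfbp5 and Igfbp2 lie next to each other on chromosome 1, and across the 6 libraries their levels moved together (r = 0.723). Summed astrocyte markers were also lower in both replicate 1 libraries, at 194 FPKM in KO and 130 FPKM in WT, against 380 to 668 FPKM in the other 4, and their part in the binding protein levels was not tested. Summed vascular, mural and meningeal markers were at 68.4 to 142 FPKM in KO and 69.0 to 112 in WT.

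Irs1, an adaptor of both receptors, was at 3.91, 4.82 and 3.90 FPKM in KO and 3.95, 4.40 and 3.99 FPKM in WT (chr1:82233101-82291416, minus strand, mm10). Replicate 2 was the highest library of each genotype and the other 4 lay between 3.90 and 3.99 FPKM. The log2 difference was 0.02 ± 0.13 (SE), with a 95% interval of -0.29 to 0.34. Of its 9144 exonic bases, 2822 are shared with Gm9747, annotated on the opposite strand within the last exon of Irs1 (chr1:82233112-82235933), and were left out of its level. Plus-strand transcripts were assembled there at 4.52 to 6.21 FPKM in all 6 libraries. Whether the libraries keep strand is not stated in the labels, so reads of the 2 genes cannot be told apart in that stretch.

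Irs2, the other adaptor, was at 32.5, 30.6 and 20.9 FPKM in KO and 40.3, 29.7 and 21.5 FPKM in WT (chr8:10984681-11008458, minus strand, mm10). Replicate 1 was highest and replicate 3 lowest in both genotypes, and the groups overlapped. Its log2 difference was -0.10 ± 0.27 (SE), and its SE was 0.10 with the replicate block. The level of Irs2 was 5.36 times that of Irs1 or more in every library.

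Beyond the 9 genes, 85 other genes of the pathway were listed, and 69 of them were above the filter. None passed the adjusted threshold, 39 had a higher and 30 a lower mean in KO, and the median difference was 0.03. At an unadjusted p under 0.05 there were 2 (2.90%), Shc1 and Igf2bp3, beside 1.47% of all genes. Without overlap between the genotypes, 1 was higher in KO (Shc1, 1.45% of the 69 beside 2.07% of all genes). On the other side, 4 were lower without overlap (Sos1, Pik3r1, Ide and Igf2bp3, 5.80% of the 69 beside 3.01% of all genes). Pik3r1 was named here after its values were seen.

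Igf2, the second IGF ligand and an imprinted gene, was at 2.29, 2.16 and 1.64 FPKM in KO and 3.76, 5.75 and 1.82 FPKM in WT, a log2 difference of -0.58 ± 0.33 (SE). WT replicate 3 fell among the KO libraries. Ins2, Insrr, Igfbp1, Igfals and Irs3 were listed at 0 in every library. Igf2r, the receptor that clears IGF2, had 9.90 FPKM in KO and 9.24 in WT on average, and Igfbp7 had 19.3 and 17.1 FPKM. Igfbp6 was under the filter at 0.387 to 1.06 FPKM. The 7 tested genes of this list divided into 4 with a higher and 3 with a lower mean in KO. Dok4, an adaptor of the insulin receptor, had 11.1 FPKM in WT replicate 1, while the other libraries had 3.26 to 3.93.

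Igf2bp3 encodes an RNA-binding protein of fetal tissues that binds Igf2 mRNA. It was at 13.9, 13.7 and 14.3 FPKM in KO and 18.7, 17.4 and 18.3 FPKM in WT. The KO libraries were all below the WT libraries, with a log2 difference of -0.35 ± 0.09 (SE), a limma unadjusted p of 0.00734 and an adjusted p of 0.99986. Over coding bases the levels were 13.7 to 14.3 FPKM in KO and 17.4 to 20.0 FPKM in WT. Igf2bp2 had 31.4 FPKM in KO and 31.0 in WT.

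Downstream of the receptors, 16 of 32 genes had a higher and 16 a lower mean in KO, with a median of -0.003. Shc1, an adaptor that links receptors to RAS, was at 13.3, 9.63 and 9.62 FPKM in KO and 7.14, 8.07 and 7.85 FPKM in WT (limma unadjusted p = 0.0277, adjusted p = 0.99986). Sos1, the exchange factor that activates RAS, was at 8.82, 9.09 and 8.49 FPKM in KO and 10.5, 10.6 and 10.0 FPKM in WT. Gsk3b, a kinase inhibited by AKT, had a log2 difference of -0.85 ± 0.40 (SE). It was assembled over 33.0% to 33.5% of its bases in the KO libraries and WT replicate 2, and over 99.2% and 99.8% in WT replicates 1 and 3. Over its coding bases it was at 25.6 to 34.5 FPKM in KO and 19.7 to 31.7 FPKM in WT, a log2 difference of 0.13.

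Among receptor inhibitors and turnover genes, 8 of 11 had a higher mean in KO. Socs2, a feedback inhibitor of cytokine and growth hormone receptors, was at 2.86, 2.1 and 1.89 FPKM in KO and 5.47, 3.63 and 1.96 FPKM in WT, with KO replicates 1 and 2 above WT replicate 3. It was assembled over 80.0%, 37.0% and 38.1% of its bases in KO and 72.6%, 79.9% and 37.5% in WT. Over coding bases Socs2 was at 4.22, 5.55 and 4.93 FPKM in KO and 7.86, 4.89 and 5.21 FPKM in WT, a log2 difference of -0.23. Ide, which degrades insulin, had 40.2 FPKM in KO and 43.1 in WT, and Ptprf, a receptor phosphatase, 31.8 and 29.7. Of 6 tested binding protein proteases and inhibitors, 3 were on each side, among them Ctsd, a lysosomal protease, Mmp2, a matrix protease, and Stc2, an inhibitor of PAPP-A. The difference of Ctsd turned from -0.08 over all its bases, of which 51.6% were assembled in KO replicate 2, to 0.22 over coding bases. Of the tested FOXO target genes, which IGF signalling is known to hold down, 7 of 11 had a higher mean in KO, with a median of 0.08. Sod2, a mitochondrial antioxidant enzyme gene, was at -0.35 ± 0.24 (SE), Cdkn1b, a cell cycle inhibitor, at -0.17 ± 0.15 and Gadd45a, a stress response gene, at 0.16 ± 0.11 on the log2 scale. Sod2 was assembled over 13.3% to 20.7% of its bases in the KO libraries and WT replicate 2, and over 64.3% and 97.3% in WT replicates 1 and 3. Over coding bases Sod2 was at 107, 77.9 and 89.7 FPKM in KO and 34.4, 76.8 and 19.2 FPKM in WT, and its log2 difference turned to 1.27. That of Cdkn1b turned to 0.16 over coding bases, with 22.7, 37.5 and 35.5 FPKM in KO and 29.4, 34.2 and 21.3 FPKM in WT. Of the 18 pathway genes named by rule that had a coding value, 4 turned in this way: Gsk3b, Ctsd, Sod2 and Cdkn1b.

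**Figure D5:**
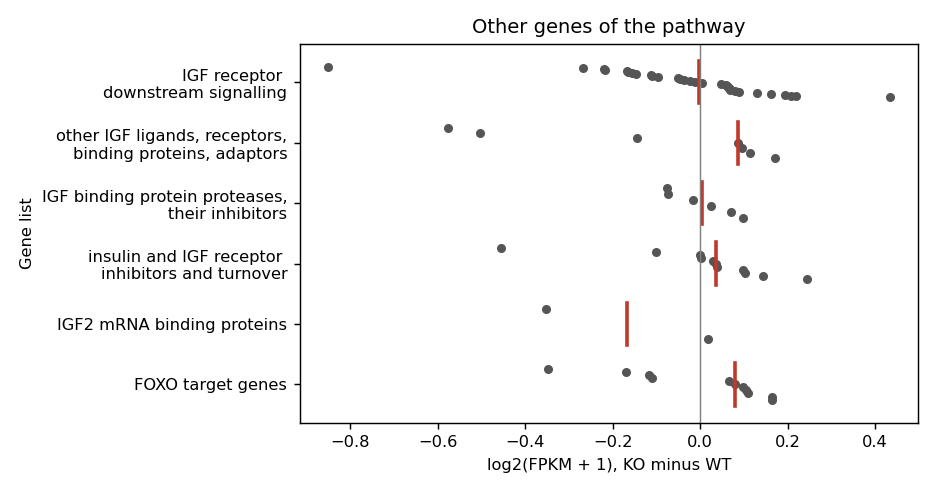
KO minus WT on the log2(FPKM + 1) scale for the 69 tested genes of the 6 pathway lists, with 1 point for each gene and the list median as a red bar. The points lie on both sides of 0 in every list, and none passed the adjusted threshold.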

How the data were processed

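RNA-seq was made from 3 KO and 3 WT samples, with groups and numbers from the titles. The submitters' processing notes name mm10, TopHat2 2.1.1, FastQC, Cuffdiff 2.2.1 and Cufflinks 2.2.1. The authors deposited 1 transcript assembly per library, with FPKM, other values such as coverage, and no read counts, so depth is known only relatively. Transcripts were matched by position to GENCODE M21.

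A gene's level is the FPKM of transcripts of 300 nt or more, on its strand or unstranded, averaged over exonic bases that belong to no other annotated gene (at least 200). Genes of all annotated types with a mean of 1 FPKM or more (12347 of 47691) entered limma 3.58.1 (R 4.3.3) as log2(FPKM + 1) (trend, two-sided, genotype only, Benjamini-Hochberg at 0.05). The code was tested on simulated data. Igf1, under the filter, had an exact permutation test in Python 3.11.15 with scipy 1.17.1. For its highest spliced transcript, the authors' confidence bounds spanned ± 11.2% to 36.1% of the FPKM for Igf1 and ± 1.16% to 11.5% for the other 8 genes.

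The genes and lists were chosen with earlier results of these data known. Named pathway genes are those past the threshold, otherwise the 3 with the smallest unadjusted p per list, plus Igf2, Igf2r, Igfbp6 and Igfbp7, and the 3 genes most like Igf1 and Igf1r. One gene that this rule takes is not reported here. A fit limited to protein-coding and lncRNA genes (12045 genes, 1 called against 3) was tried after the calls had been seen and stands only as an alternative. Coding-base values, sums over transcripts of any length, the splice forms shown, and the motifs and promoter were also chosen after seeing the data. Same-numbered libraries deviated together (r across genes = 0.340, 0.176 and 0.301, against -0.268 to 0.00285 for other combinations), and the numbers come from the titles. They were therefore compared as pairs and given a replicate block in alternative fits. The main fit and the permutation tests did not use the pairing.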

Additional observations from a re-analysis of the deposited data

How the results depend on the processing

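None of the 8 genes above the filter passed the threshold in any of the 23 alternatives run, nor did any of the 67 to 78 other pathway genes each of them tested. Igf1 was above the filter, or tested without one, in 7 of these fits and passed in none. Directions were less stable. The log2 difference of Igf1, 0.30 over all exonic bases, was -0.26 over coding bases and also with the replicate block, -0.26 over assembled bases, -0.0705 for the highest transcript, -0.20 for summed FPKM and -0.52 for sums over transcripts of any length. That of Igf1r was 0.00020 with a pseudocount of 5, 0.15 for both sums, 0.0361 with array weights, 0.0186 over coding bases with or without the replicate block and 0.0781 without both libraries of number 1. Insr was at 0.0022 over coding bases with or without the block. Igfbp4 was at -0.23 for sums of any length, where the median of all genes was -0.25. Igfbp5 was at -0.18 with array weights and -0.0758 without number 1. Irs1 was at -0.47 for both sums and -0.0745 for the highest transcript. Irs2 was at 0.10 for the highest transcript and 0.0019 without number 1. Leaving out 1 library gave -0.0883 to 0.0527 for Igf1r, -0.11 to 0.0260 for Insr, -0.25 to 0.25 for Igfbp5, -0.0573 to 0.0666 for Irs1 and -0.32 to 0.12 for Irs2. The cause of these turns was not tested. The differences of Igfbp2 and Igfbp3 stayed above 0 in every alternative run, at 0.10 to 0.67 and 0.05 to 0.43.

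Over all genes, 3 passed. The count was 0 with the replicate block, and 0 with the block over coding bases, 1 over coding bases alone, 1 without a minimum transcript length, 1 for protein-coding and lncRNA genes only, 0 for sums of any length and 39 without both libraries of number 1. Leaving out 1 library gave 4 to 24, the highest without KO replicate 1. Without read counts, no counting error can be given, and unassembled low transcripts are listed at 0.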
